A study of Mus musculus with 6 samples.

Results

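Bone marrow-derived macrophages are cells grown from bone marrow precursors until they carry macrophage markers. KN93 is a small molecule that keeps calcium-bound calmodulin from activating the calmodulin-dependent protein kinases, CaMKII above all. The sources used here do not give the treatment time, the selection of RNA for the libraries or the number of mice behind each library. The libraries came from C57BL/6 mice labelled as 6 weeks old, with 2 samples of cells given PBS, 2 given 5 µM KN93 and 2 given 10 µM KN93, all without any other stated agent or genotype. The labels do not tell whether the pair of samples in a group came from different cultures or mice, and p-values therefore rest on a spread that may be technical. Expression is given as FPKM, the fragments per 1000 exon bases and per 1000000 fragments in the library.

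The genes described here had their lowest level at the middle of this dose series. They were chosen by a rule on y = log2(FPKM + 1), read in all 6 samples. A gene needed at least 1 FPKM in at least 2 samples, a mean y at 5 µM that was at least 0.25 below the PBS mean and at least 0.25 below the 10 µM mean, and both 5 µM values below the 4 others. Of 54446 entries in the table, 12722 passed the expression condition and 177 of these met the whole rule, which is 1.39% of the genes that could. Without the margin, both 5 µM values lay below all 4 others in 1071 genes, or 8.42%, and above all 4 others in 869 genes, or 6.83%. With the same margin turned upward, 166 genes peaked at 5 µM. Because the rule used every library, differences from PBS to 5 µM and from 5 µM to 10 µM are given as values without a test. The difference between 10 µM and PBS was not set in direction by the rule and is tested, although in the same samples, and genes that go steadily up or down with dose could not be members.

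A dip at a middle dose is the shape for which these genes were chosen, and genes with quite different jobs can share it. Whether the dip of a member is a response to the dose was not tested. Several of the members belong to known inducible systems. Interferon-inducible GTPases of the GBP and IRG families are made after interferon and attack the vacuoles in which microbes hide. NF-kB target genes, such as those for adhesion molecules, cyclooxygenase and NF-kB inhibitors, are switched on by inflammatory signals and are partly silent in resting macrophages.

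The libraries were of like depth, and in units of 1000000 fragments the totals behind the FPKM scale ran from 24.2 to 28.4. Macrophage markers were abundant in all groups, with Csf1r, the receptor of the macrophage growth factor, at 657 and 642 FPKM under PBS, 439 and 444 FPKM at 5 µM and 327 and 363 FPKM at 10 µM. Cd68 went the other way, with 842 and 861 FPKM under PBS, 1532 and 1508 FPKM at 5 µM and 1396 and 1511 FPKM at 10 µM. Of 34 tested macrophage identity genes, 24 were called lower and 3 higher in 10 µM cells relative to PBS. Over all genes tested, 22.0% were called lower and 28.5% higher in that comparison. Markers of other cells were also present. The 19 stromal cell markers summed to 2088 and 2038 FPKM under PBS, 668 and 553 FPKM at 5 µM and 410 and 389 FPKM at 10 µM, so that sum went down with dose and did not dip. Much of it came from Col1a1 and Acta2, with 831 and 781 FPKM and 657 and 672 FPKM under PBS. The 16 neutrophil markers summed to 223 and 213 FPKM under PBS, 120 and 131 FPKM at 5 µM and 67.5 and 73.7 FPKM at 10 µM. The 14 erythroid and megakaryocyte markers summed to 938 and 1045 FPKM under PBS. At 5 µM that sum was 406 and 322 FPKM, and at 10 µM 132 and 132 FPKM. Only 3 of the 14 passed the expression condition. In bulk RNA, fewer cells of a type and less RNA per cell cannot be told apart.

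Most members dipped by little and came back to about the PBS level. On the log2 scale the members' median difference was -0.42 for 5 µM minus PBS and 0.39 for 10 µM minus 5 µM, while over all genes tested the medians were 0.0144 and 0.0351. Depth of the dip, taken as the smaller of the 2 steps, had a median of 0.33 and reached 1.61, with 37 members at 0.5 or more and 3 at 1 or more. The gap between the highest 5 µM value and the lowest of the 4 others had a median of 0.174, ran from 0.0091 to 0.862 and was under 0.05 in 14 members. The median difference between duplicates of the members was 0.159 for PBS, 0.128 for 5 µM and 0.162 for 10 µM.

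**Figure D1:**
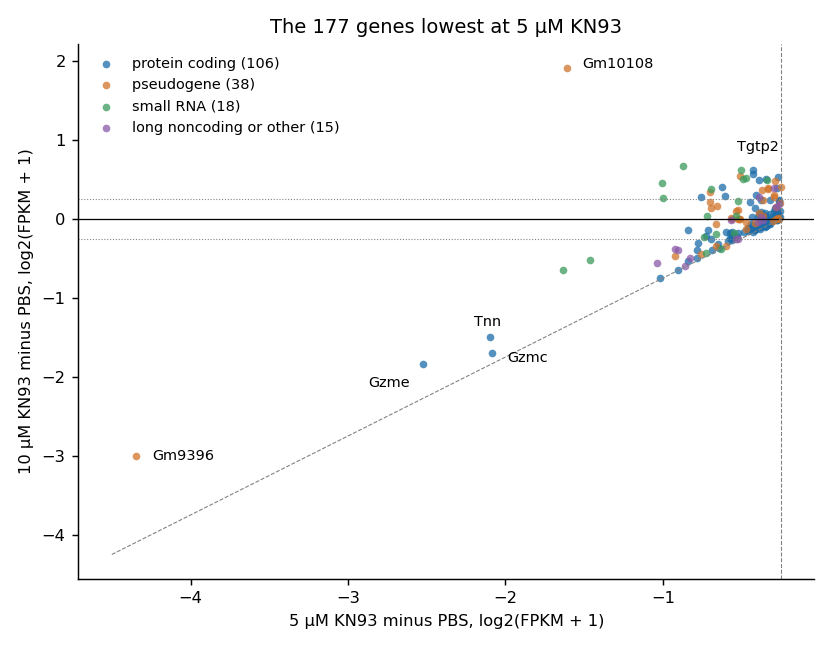
Each point is a gene of the rule, with the mean difference of 5 µM KN93 from PBS on the x axis and of 10 µM KN93 from PBS on the y axis, both in log2(FPKM + 1), n = 2 samples per group. Dashed lines are the margin of 0.25 that every member had to pass, dotted lines mark 0.25 above and below PBS, colours give the annotation class, and most points lie near 0 on the y axis.

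The members split by where the 10 µM cells ended. In 115 members (65.0%) the 10 µM mean was within 0.25 of the PBS mean, in 30 (16.9%) it was above and in 32 (18.1%) below. In a limma fit across all 12722 genes, 17 members rose and 16 fell in 10 µM cells relative to PBS, at an adjusted p under 0.05, and 144 were not called. Among members these were shares of 9.6% and 9.04%, and among all genes tested 28.5% were called higher and 22.0% lower. Since the rule leaves out graded responses, nothing is read from that difference. The median difference of 10 µM from PBS was -0.0036 in the members and 0.0548 over all genes tested.

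Interferon-inducible GTPases were among the members, and 4 of the 5 described here rose above PBS at 10 µM. Tgtp2, a GTPase of the IRG family at chr11:49057194-49064206 on the minus strand, had 16.2 and 13.4 FPKM under PBS, 10.3 and 11.1 FPKM at 5 µM and 25.4 and 21 FPKM at 10 µM. Both 10 µM values lay above both PBS values, while the place of the 5 µM values was set by the rule. Tgtp2 rose by 0.62 ± 0.12 (SE) on the log2 scale in 10 µM cells relative to PBS (limma adjusted p = 0.0079). The estimates ran from 0.49 to 0.75 over the alternatives. Gbp7, a guanylate-binding protein at chr3:142530342-142550149, had 18.9 and 16 FPKM under PBS, 13.0 and 13.1 FPKM at 5 µM and 27.1 and 23 FPKM at 10 µM. Its 10 µM values likewise lay above both PBS values, and it rose by 0.50 ± 0.10 (limma adjusted p = 0.0103), with estimates of 0.38 to 0.61 over the alternatives. Ifi47, an IRG GTPase at chr11:49076587-49096974, was the most abundant of these, with 62.5 and 55.9 FPKM under PBS, 48.3 and 49.0 FPKM at 5 µM and 78.3 and 77.0 FPKM at 10 µM, and it rose by 0.39 ± 0.06 (adjusted p = 0.0040, 0.0016 to 0.0226 over the alternatives).

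Iigp1, a further IRG GTPase, had 22.2 and 17.4 FPKM under PBS, 13.9 and 14.9 FPKM at 5 µM and 33.4 and 26.1 FPKM at 10 µM. The duplicates of PBS and of 10 µM were wide apart, and its rise of 0.56 ± 0.15 (limma adjusted p = 0.0244) was not called without PBS sample 2 (0.101), without 10 µM sample 1 (0.0959) or with no expression filter (0.0797). Gbp9 did not end above PBS. It had 25.1 and 22.1 FPKM under PBS, 16.3 and 18.2 FPKM at 5 µM and 24.9 and 19.9 FPKM at 10 µM, a difference between 10 µM and PBS of -0.08 ± 0.12 (adjusted p = 0.617). The Gbp9 locus lies inside Gbp8 and overlaps Gbp4, both on its own strand, so fragments may be shared. Neither Gbp8 nor Gbp4 had both 5 µM values lowest, and each stepped up by 0.79 from 5 µM to 10 µM. Tgtp2 stands in no list and Ifi47 in another. Of 18 tested genes in the GBP and IRG list, 3 were members (Gbp7, Gbp9 and Iigp1) and 1 more, Igtp, had both 5 µM values below all others (22.2% against 8.42% of all genes). In 10 µM cells relative to PBS, 17 of the 18 rose and none fell, against 28.5% called higher and 22.0% lower over all genes tested. The median of the 18 was -0.0114 from PBS to 5 µM and 0.79 from 5 µM to 10 µM on the log2 scale, where the value at 5 µM was 0.0157 under quantile normalization. The middle gene of these families was thus flat at 5 µM.

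Type I interferon-stimulated genes, made after signalling from the interferon alpha and beta receptor, supplied Ifi47 and Eif2ak2 from 39 tested. Both 5 µM values were lowest in 7 of the 39 (17.9%), against 8.42% of all genes. Eif2ak2, the kinase PKR that senses double-stranded RNA and stops translation, had 30.4 and 29.0 FPKM under PBS, 23.3 and 23.2 FPKM at 5 µM and 29.5 and 28.4 FPKM at 10 µM. It was back near the PBS level at 10 µM, with a difference of -0.03 ± 0.05 (limma adjusted p = 0.581). Of the 39, 35 rose at 10 µM relative to PBS and none fell, against 28.5% called higher and 22.0% lower over all genes tested.

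Other members known as interferon-inducible stand outside these lists and were picked out after their values were seen, so they get no group count. Slfn9, of the Schlafen family, had 11.2 and 10.1 FPKM under PBS, 5.96 and 6.28 FPKM at 5 µM and 10.1 and 8.99 FPKM at 10 µM. Samhd1, which degrades the nucleotides that reverse transcription needs, had 82.8 and 75.1 FPKM under PBS, 58.4 and 62.5 FPKM at 5 µM and 75.9 and 70.3 FPKM at 10 µM. Both were back near PBS at 10 µM and neither was called there. Ifitm6, an interferon-induced membrane protein, had 11.0 and 8.38 FPKM under PBS, 6.33 and 5.66 FPKM at 5 µM and 12 and 12 FPKM at 10 µM. Epsti1, Pml, Mov10 and Apol9a had 5 µM minus PBS differences between -0.40 and -0.25.

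Promoters of Tgtp2 and Gbp7 are shown because both genes dipped and then rose above PBS, and because each holds an interferon-stimulated response element (ISRE), the DNA word to which interferon-activated factors bind. The sequences are from RefSeq on GRCm38.p6 and run 5′ to 3′ on the strand of the gene, from 250 bases before to 50 bases after its start, with the letters GAAANNGAA, searched on both strands, in capitals.
Tgtp2, chr11:49064163-49064462, minus strand: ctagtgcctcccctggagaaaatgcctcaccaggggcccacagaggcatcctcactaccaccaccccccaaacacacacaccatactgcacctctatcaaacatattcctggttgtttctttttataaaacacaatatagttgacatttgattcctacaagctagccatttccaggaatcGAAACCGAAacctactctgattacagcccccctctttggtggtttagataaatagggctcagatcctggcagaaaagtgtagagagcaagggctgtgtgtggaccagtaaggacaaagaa
Gbp7, chr3:142530086-142530385, plus strand: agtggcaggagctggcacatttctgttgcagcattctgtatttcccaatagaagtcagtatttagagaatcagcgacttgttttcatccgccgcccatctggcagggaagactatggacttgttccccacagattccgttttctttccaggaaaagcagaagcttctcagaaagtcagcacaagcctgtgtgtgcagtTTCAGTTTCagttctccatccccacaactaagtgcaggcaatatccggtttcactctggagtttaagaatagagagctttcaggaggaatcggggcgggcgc
The promoter of Ifi47, which also dipped and rose above PBS, held no such match. In Tgtp2 the match GAAACCGAA lies 70 to 62 bases before the start. In Gbp7 the match is on the other strand, read here as TTCAGTTTC, 52 to 44 bases before the start. A match describes letters and does not show that a factor binds there. Of the 83 protein-coding members with a RefSeq promoter, 8 (9.64%) held this word, against 7.6% of the 8419 promoters of protein-coding genes tested, and 7 of 57 promoters of genes that peaked at 5 µM (12.3%).

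**Figure D2:**
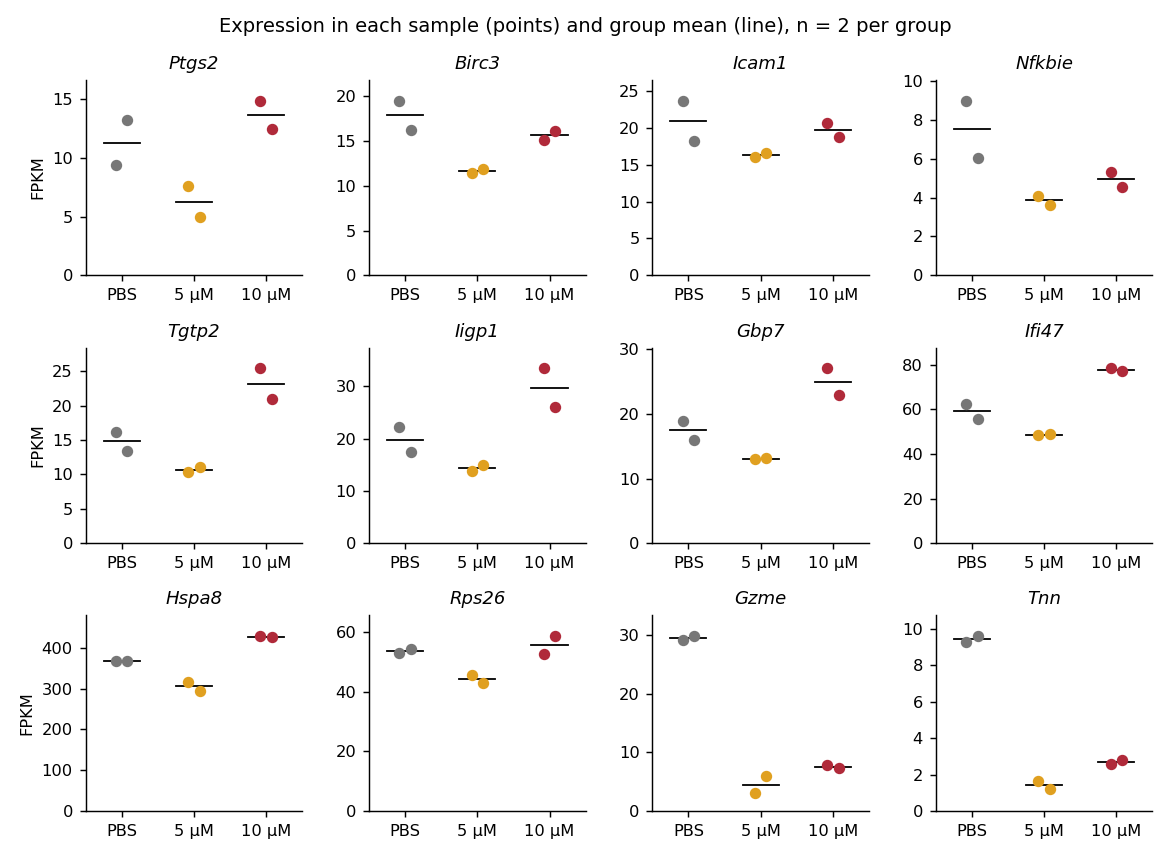
FPKM of 12 members in each of the 6 samples, on a linear y axis that starts at 0. Points are samples and lines are group means, with 2 samples each of PBS, 5 µM and 10 µM on the x axis, and both 5 µM points lie lowest in every panel, as the rule requires.

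NF-kB genes gave 4 members. Of 28 tested genes in the list of NF-kB subunits, feedback inhibitors and inflammatory cytokines, 10 (35.7%) had both 5 µM values below the other 4, against 8.42% of all genes. Besides the members these were Tnfaip3, Nfkb2, Rel, Nfkbia, Nfkb1 and Relb, the subunits and feedback inhibitors of the pathway itself. Lowest values at 5 µM did not always mean a return. Nfkbia had 101 and 89.4 FPKM under PBS, 63.9 and 62.1 FPKM at 5 µM and 64.3 and 69.1 FPKM at 10 µM. It stepped up by 0.08 from 5 µM to 10 µM and fell by 0.50 ± 0.07 in 10 µM cells relative to PBS (limma adjusted p = 0.0026). The median of the 28 was -0.20 from PBS to 5 µM and 0.23 from 5 µM to 10 µM. In 10 µM cells relative to PBS 9 of the 28 rose and 8 fell, against 28.5% called higher and 22.0% lower over all genes tested.

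Ptgs2, the inducible cyclooxygenase that starts prostaglandin synthesis, was the deepest of the 4. It had 9.36 and 13.2 FPKM under PBS, 7.58 and 5.00 FPKM at 5 µM and 14.9 and 12.5 FPKM at 10 µM. Its duplicates at 5 µM differed by 0.51 on the log2 scale, and the 10 µM and PBS values overlapped, with a difference of 0.27 ± 0.22 (limma adjusted p = 0.346). Birc3, an inhibitor of apoptosis and ubiquitin ligase of TNF receptor signalling, had 19.5 and 16.2 FPKM under PBS, 11.4 and 11.9 FPKM at 5 µM and 15.1 and 16.2 FPKM at 10 µM. Its 10 µM values were below both PBS values by a small amount that was not called (-0.18 ± 0.09, adjusted p = 0.153).

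Nfkbie, the NF-kB inhibitor IkB-epsilon, had 8.98 and 6.03 FPKM under PBS, 4.10 and 3.63 FPKM at 5 µM and 5.31 and 4.56 FPKM at 10 µM. Of the 4 it stayed furthest below PBS at 10 µM, with both values under both PBS values but without a call (-0.50 ± 0.17, limma adjusted p = 0.0553). Icam1, an adhesion molecule for leukocyte integrins, had 23.7 and 18.2 FPKM under PBS, 16.1 and 16.6 FPKM at 5 µM and 20.7 and 18.8 FPKM at 10 µM. It passed the margin narrowly, with a depth of 0.256, and 10 µM and PBS overlapped (-0.07 ± 0.12, adjusted p = 0.659). Tank, Traf4, Ripk2 and Nod2, adaptors and sensors upstream of NF-kB, stand in no list and were picked out after their values were seen, with 5 µM minus PBS differences between -0.53 and -0.29.

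Promoters of Icam1, Nfkbie and Ptgs2 are printed to show what the NF-kB members hold at their starts. The capitals mark GGANNTTCC or its reverse complement for Icam1 and Nfkbie, also TATAAA for Icam1, and the E-box word CACGTG for Ptgs2. All 3 are 300 bases from RefSeq on GRCm38.p6.
Icam1, chr9:21015690-21015989, plus strand: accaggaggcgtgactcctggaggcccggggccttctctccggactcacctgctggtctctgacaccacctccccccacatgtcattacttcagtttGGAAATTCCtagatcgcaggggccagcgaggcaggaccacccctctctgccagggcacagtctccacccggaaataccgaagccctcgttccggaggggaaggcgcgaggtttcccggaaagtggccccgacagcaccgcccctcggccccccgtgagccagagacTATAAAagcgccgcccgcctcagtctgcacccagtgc
Nfkbie, chr17:45555450-45555749, plus strand: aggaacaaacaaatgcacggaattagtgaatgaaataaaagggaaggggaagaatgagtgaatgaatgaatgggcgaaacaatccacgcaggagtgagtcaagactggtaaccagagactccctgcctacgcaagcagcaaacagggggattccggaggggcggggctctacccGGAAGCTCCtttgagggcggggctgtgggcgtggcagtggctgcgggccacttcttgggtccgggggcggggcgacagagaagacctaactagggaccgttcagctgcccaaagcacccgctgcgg
Ptgs2, chr1:150099781-150100080, plus strand: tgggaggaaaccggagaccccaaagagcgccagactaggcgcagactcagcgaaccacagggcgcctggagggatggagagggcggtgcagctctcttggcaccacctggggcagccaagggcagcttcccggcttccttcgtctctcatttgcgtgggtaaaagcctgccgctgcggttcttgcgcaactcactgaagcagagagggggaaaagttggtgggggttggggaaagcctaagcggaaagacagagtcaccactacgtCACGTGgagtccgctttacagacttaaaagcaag
In Icam1 the word GGAAATTCC lies 153 to 145 bases before the start and TATAAA 14 to 19 bases from it. In Nfkbie the word GGAAGCTCC lies 76 to 68 bases before the start. In Ptgs2 the E-box lies 17 to 22 bases from the start. No GGANNTTCC was found in this window in Ptgs2 or in Birc3, whose promoter is not printed, so 2 of the 4 NF-kB members held the word, and its absence says only that these letters are not there. NF-kB words were found in 6 of 83 member promoters (7.23%) against 4.67% of 8419, and TATAAA in 11 (13.3%) against 6.69%, with 3.51% for each in the 57 promoters of genes that peaked at 5 µM. The median GC content was 61.0% in member promoters and 61.0% in all.

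Cytosolic heat shock proteins had 2 members of 17 tested. Both 5 µM values were lowest in 6 of the 17 (35.3%), against 8.42% of all genes, among them Hspa1a, Dnajb1, Bag3 and Hsph1. Hspa8, the constitutive HSP70 chaperone, was the most abundant protein-coding member, with 367 and 368 FPKM under PBS, 317 and 295 FPKM at 5 µM and 429 and 427 FPKM at 10 µM. It rose by 0.22 ± 0.05 in 10 µM cells relative to PBS (limma adjusted p = 0.0196). That call was lost without either PBS sample (0.0891 and 0.0841), without either 10 µM sample (0.0589 and 0.0584), under median-of-ratios scaling (0.0578) and with no expression filter (0.0691). Dnajb4, a co-chaperone of HSP70, had 1.87 and 2.33 FPKM under PBS, 1.29 and 1.48 FPKM at 5 µM and 1.85 and 2.04 FPKM at 10 µM, and Bag2, another HSP70 partner that stands in no list, is described with the genes that fell.

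Of 35 ATF4 target genes tested, Cebpb, Phgdh and Slc7a5 were members, with 5 µM minus PBS differences between -0.27 and -0.26. The median of the whole list was 0.35 for that difference. In 10 µM cells relative to PBS, 25 of the 35 rose and 1 fell, against 28.5% called higher and 22.0% lower over all genes tested. Phgdh, the entry enzyme of serine synthesis, had 17.8 and 17.1 FPKM under PBS, 16.4 and 12.6 FPKM at 5 µM and 20.5 and 21 FPKM at 10 µM. Of 27 glycolysis and HIF-1 genes, Adm and P4ha2 were members and 6 (22.2%) had both 5 µM values lowest, against 8.42% of all genes. Adm, the peptide hormone adrenomedullin, had 6.73 and 7.13 FPKM under PBS, 3.87 and 3.41 FPKM at 5 µM and 7.08 and 4.07 FPKM at 10 µM, so its return rested on 10 µM sample 1.

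Signalling genes were few among the members. Of 15 ERK feedback genes, Etv4 and Dusp10 were members, and the median of the 15 was already -0.58 at 5 µM. In 10 µM cells relative to PBS 11 of the 15 fell, against 22.0% of all genes tested. Dusp10, a phosphatase of stress-activated MAP kinases, had 2.13 and 2.16 FPKM under PBS, 1.61 and 1.34 FPKM at 5 µM and 2.12 and 1.81 FPKM at 10 µM. Itpr1, the IP3 receptor that lets calcium out of the endoplasmic reticulum, was the member among 25 calcium channels and pumps, with 4.57 and 4.23 FPKM under PBS, 3.03 and 2.81 FPKM at 5 µM and 4.69 and 3.30 FPKM at 10 µM. None of the 21 tested CaMK, calmodulin and calcineurin genes was a member. Junb, an AP-1 transcription factor, had 39.9 and 38.5 FPKM under PBS, 29.1 and 28.3 FPKM at 5 µM and 36.8 and 38.3 FPKM at 10 µM. Its duplicates differed by 0.053 for PBS, 0.042 for 5 µM and 0.057 for 10 µM on the log2 scale. A 5 µM group below the others is what the rule requires.

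The other listed members were Me1, Pmaip1, Slc39a4 and Dcn. Me1, the cytosolic malic enzyme that makes NADPH, was the member among 14 fatty acid synthesis genes and among 21 NRF2 targets, and it had 6.15 and 6.14 FPKM under PBS, 5.49 and 4.26 FPKM at 5 µM and 7.71 and 6.06 FPKM at 10 µM. The 5 µM minus PBS difference was -0.28 for Pmaip1, the pro-apoptotic protein NOXA, and -0.60 for Slc39a4, a zinc importer. Among the lists tested, those of the cell cycle, lysosome, antigen presentation, mitochondrial genome, cholesterol synthesis and LXR targets had no member and no gene with both 5 µM values lowest.

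Further deep or abundant members belong to no list. Slco3a1, an organic anion transporter, had 5.25 and 4.20 FPKM under PBS, 2.65 and 2.74 FPKM at 5 µM and 7.28 and 5.89 FPKM at 10 µM. Both 10 µM values lay above both PBS values. Its rise of 0.41 ± 0.12 in 10 µM cells relative to PBS (limma adjusted p = 0.0364) was lost without PBS sample 2 (0.156), without 10 µM sample 1 (0.145), without either 5 µM sample (0.0604 and 0.0605), in a fit of only the 4 samples (0.0596) and with no filter (0.106). Serping1, the C1 inhibitor of complement, had 5.32 and 3.54 FPKM under PBS, 1.76 and 2.23 FPKM at 5 µM and 4.77 and 3.08 FPKM at 10 µM, and its duplicates at PBS and 10 µM were wide apart. H3f3a, which encodes histone H3.3, had 50.1 and 51.3 FPKM under PBS, 41.9 and 41.4 FPKM at 5 µM and 47.7 and 54.3 FPKM at 10 µM.

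Granzymes and a matrix gene were the protein-coding members that fell furthest, and their return from 5 µM was partial. Gzme, a granzyme gene of the chr14 cluster (chr14:56117626-56120625, minus strand) that encodes a serine protease of killer cell granules, had 29.1 and 29.8 FPKM under PBS, 3.07 and 5.91 FPKM at 5 µM and 7.77 and 7.31 FPKM at 10 µM. It fell by 1.83 ± 0.23 in 10 µM cells relative to PBS (limma adjusted p = 0.0017, 2.9e-05 to 0.014 over the alternatives). Gzmc of the same cluster (chr14:56231441-56234656) had 4.82 and 5.92 FPKM under PBS, 0.425 and 0.565 FPKM at 5 µM and 1.20 and 0.749 FPKM at 10 µM, and it fell by 1.69 ± 0.15 (adjusted p = 0.00044, 0.00019 to 0.0039 over the alternatives). The 10 µM values of both genes were a small way above the 5 µM values and far under PBS. Gzmd, a close paralog that may share fragments with Gzme, had 8.87 and 13.1 FPKM under PBS, 0.945 and 2.17 FPKM at 5 µM and 0.858 and 1.57 FPKM at 10 µM and was no member. The T and NK cell markers Cd3d, Gzma and Gzmk were at 0 in all 6 samples. The 17 listed markers summed to 12.5 and 15.4 FPKM under PBS, 28.3 and 26.2 FPKM at 5 µM and 43.5 and 44.1 FPKM at 10 µM. That sum was higher at each dose step, but only 2 of the 17 passed the expression condition. In 10 µM cells relative to PBS, 1 of these was called higher and 1 lower, so the sum does not describe the 17 as a set.

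Tnn, the matrix protein tenascin N, had 9.28 and 9.60 FPKM under PBS, 1.67 and 1.23 FPKM at 5 µM and 2.58 and 2.79 FPKM at 10 µM. It fell by 1.5 ± 0.10 in 10 µM cells relative to PBS (limma adjusted p = 0.00016, 2.4e-06 to 0.0022 over the alternatives). Fbln5, an elastic fibre protein, had 8.0 and 6.03 FPKM under PBS, 3.11 and 3.37 FPKM at 5 µM and 4.62 and 3.55 FPKM at 10 µM. Its fall of 0.65 ± 0.15 (adjusted p = 0.0148) was not called without PBS sample 1 (0.0598), without 10 µM sample 2 (0.0681) or with no filter (0.0544). Dcn, the collagen-binding proteoglycan decorin, was the member among 28 collagen and matrix genes and among 14 tested stromal markers, with 2.01 and 2.56 FPKM under PBS, 1.39 and 1.54 FPKM at 5 µM and 2.32 and 1.82 FPKM at 10 µM. Of the 14 tested stromal markers 11 fell in 10 µM cells relative to PBS and none rose, against 22.0% called lower and 28.5% higher over all genes tested. The part of stromal cells in the values of Tnn, Fbln5 and Dcn was not tested.

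Called falls of Ctla2a and Bag2 were smaller. Ctla2a, an inhibitor of cathepsin-type proteases, had 1.67 and 2.51 FPKM under PBS, 0.468 and 0.565 FPKM at 5 µM and 0.726 and 0.936 FPKM at 10 µM. Only its PBS samples reached 1 FPKM, so it entered the test through the group in which it was high. It fell by 0.75 ± 0.15 in 10 µM cells relative to PBS (limma adjusted p = 0.00999), a difference that the filter favours. The call was lost without 10 µM sample 1, where the estimate was -0.66. Bag2, a co-chaperone that blocks the ubiquitin ligase CHIP, had 4.53 and 4.63 FPKM under PBS, 2.59 and 1.91 FPKM at 5 µM and 3.30 and 3.16 FPKM at 10 µM. Its fall of 0.40 ± 0.11 (adjusted p = 0.0249) was lost without either PBS sample (0.0851 and 0.0979), without either 10 µM sample (0.0699 and 0.0973) and with no filter (0.077).

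**Figure D3:**
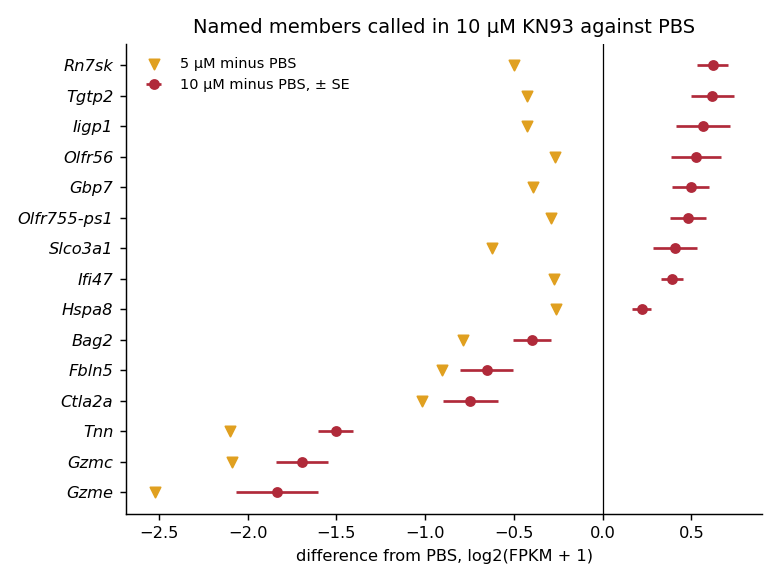
Mean differences from PBS in log2(FPKM + 1) for the 15 named members called in 10 µM KN93 against PBS, n = 2 samples per group. Circles are the limma estimate for 10 µM minus PBS with its SE, triangles are 5 µM minus PBS, and in each row the triangle lies left of the circle, as the rule requires.

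Olfr56 and Olfr755-ps1 were among the 6 largest called rises of members other than predicted genes and clones, but carry a limit. Olfr56, annotated as an olfactory receptor gene, spans chr11:48978889-49135387 and so overlaps Tgtp2 on the opposite strand and Ifi47 on its own strand. It had 1.60 and 1.01 FPKM under PBS, 0.996 and 0.803 FPKM at 5 µM and 2.39 and 2.19 FPKM at 10 µM. Its fragments may be shared with Ifi47 on its own strand and, as the use of strand is not stated, with Tgtp2. Olfr56 also overlaps 9930111J21Rik1, 9930111J21Rik2 and Gm12185 on the opposite strand, none of them members. Its rise of 0.52 ± 0.14 (limma adjusted p = 0.0256) was lost without PBS sample 2, without either 10 µM sample and with no filter (0.0836). The estimate was 0.34 without PBS sample 2, and 0.48 and 0.57 without 10 µM samples 1 and 2. The unprocessed pseudogene Olfr755-ps1 had 0.653 and 0.582 FPKM under PBS, 0.292 and 0.357 FPKM at 5 µM and 1.32 and 1.20 FPKM at 10 µM. No sample outside the 10 µM group reached 1 FPKM, so this pseudogene passed the filter only through its high group. The PBS libraries held 16 and 15 of its fragments, while the 5 µM libraries held 7 and 9. Its rise of 0.48 ± 0.10 (adjusted p = 0.0107) is thus one that the filter favours. The call was lost without PBS sample 2, with an estimate of 0.45, and without 10 µM sample 1, with 0.44.

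Only 106 of the 177 members were protein-coding genes (59.9% against 83.4% of all genes tested). Pseudogenes made 38 members (21.5% against 6.97%), small RNA loci 18 (10.2% against 2.48%) and long noncoding or other genes 15 (8.47% against 7.17%). The genes that peaked at 5 µM held 46.4% protein-coding genes, 22.3% pseudogenes, 10.8% small RNAs and 20.5% long noncoding or other genes. The coding members were also the better measured ones. Both 5 µM libraries held under 20 fragments in 37 members, namely 17 of the 18 small RNAs, 12 pseudogenes, 6 long noncoding or other genes and 2 coding genes, and the median at 5 µM was 386.5 fragments for coding members and 3 for small RNAs. Under 200 exon bases were 10.7% of members and 2.85% of all genes tested, and a mean under 5 FPKM was found in 56.5% of members and 43.3% of all genes tested.

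**Figure D4:**
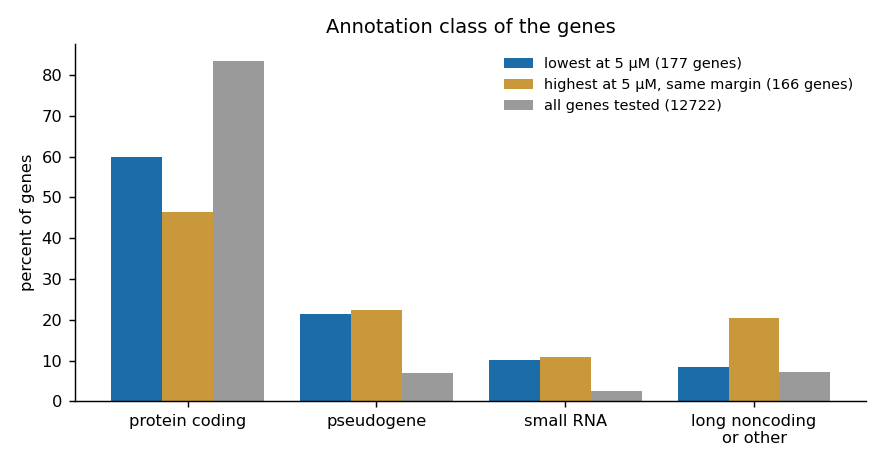
Bars give the percent of genes in each annotation class on a linear y axis from 0, for the 177 genes lowest at 5 µM KN93, the 166 genes that peaked at 5 µM by the same margin and all 12722 genes tested. Pseudogenes and small RNAs take a larger share in both sets chosen by the 5 µM values than in all genes tested.

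By sequence, 35 of the 38 matched a tested protein-coding gene over at least 50% of their length, with a median identity of 99.2%, against 832 of all 887 tested pseudogenes, with a median identity of 98.7%. For 16 of the 38 (42.1%) the closest gene encoded a ribosomal protein, against 227 of 887 tested pseudogenes (25.6%). Reads of such copies can be placed on either locus, so each value is uncertain. Of the 29 distinct closest genes, 9 had both 5 µM values lowest, against 8.42% of all genes tested, and 3, Rps26, Rpl35a and Birc3, were members themselves.

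Ribosomal protein genes as a whole were added as a list after values were seen. Of 81 tested, 4 were members (Rps26, Rpl35a, Rpl22l1 and Rpl39l) and 13 (16%) had both 5 µM values lowest, against 8.42% of all genes. The median of the 81 was -0.0419 from PBS to 5 µM and 0.0764 from 5 µM to 10 µM. Rps26, a protein of the small subunit, had 53 and 54.5 FPKM under PBS, 45.6 and 42.8 FPKM at 5 µM and 52.6 and 58.7 FPKM at 10 µM. Its pseudogene Rps26-ps1, which is 99.1% identical over the aligned part, had 136 and 144 FPKM under PBS, 123 and 109 FPKM at 5 µM and 128 and 154 FPKM at 10 µM. Their 5 µM minus PBS differences were -0.28 for Rps26 and -0.27 for Rps26-ps1, and since they can share reads they are not independent.

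The 2 deepest dips were in predicted pseudogenes, described after their values were seen, whose closest gene did not dip. Gm9396 (chr3:130068412-130068978), 99.3% identical to the ribosomal protein gene Rpl12, had 92.0 and 124 FPKM under PBS, 4.42 and 4.20 FPKM at 5 µM and 17.9 and 8.57 FPKM at 10 µM. Rpl12 had 24.3 and 24.8 FPKM under PBS, 26 and 21.5 FPKM at 5 µM and 24.2 and 25.7 FPKM at 10 µM. Gm9396 fell by 3.0 ± 0.32 in 10 µM cells relative to PBS (limma adjusted p = 0.00091, 3.7e-05 to 0.0067 over the alternatives), the largest called fall of a member. Gm10108 had 24 and 3.10 FPKM under PBS, 2.26 and 2.38 FPKM at 5 µM and 39.0 and 34.9 FPKM at 10 µM, and its PBS duplicates differed by 2.61 on the log2 scale. Its closest gene Gm10053, 99.4% identical, had 19.7 and 16.9 FPKM under PBS, 20.4 and 20.6 FPKM at 5 µM and 24.7 and 24.5 FPKM at 10 µM, without a dip.

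**Figure D5:**
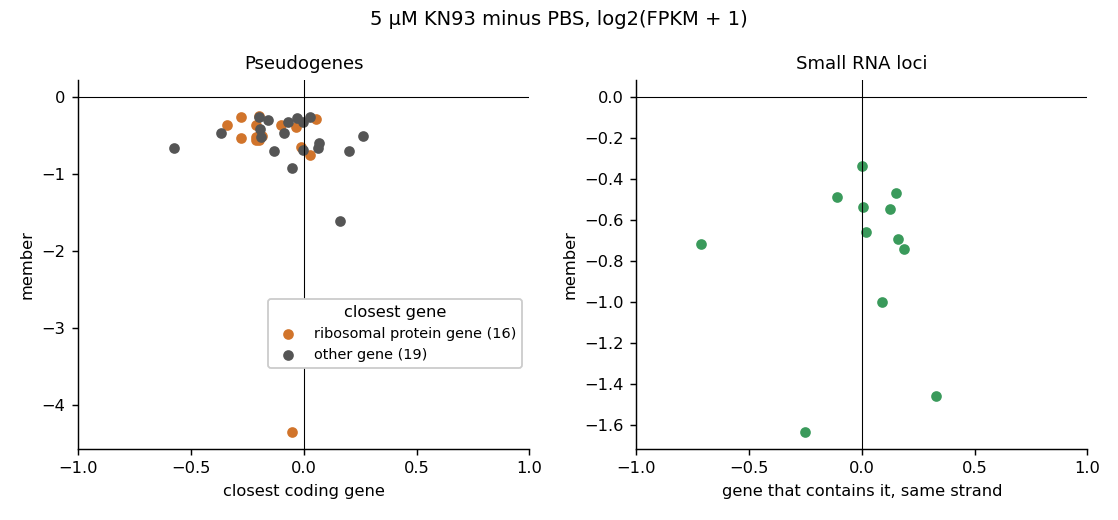
Mean difference of 5 µM KN93 from PBS in log2(FPKM + 1), with the gene related to a member on the x axis and the member on the y axis. The left panel holds the 35 pseudogene members and their closest protein-coding gene, the right panel the 12 small RNA members inside a gene on the same strand, and the related genes spread on both sides of 0 while all members lie below it.

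Small RNA members rest on few fragments. For 12 of the 18, the locus lies inside a tested gene on the same strand, and only Slfn9, which holds Mir7679, had both 5 µM values lowest among these hosts. Snord83b, a small nucleolar RNA in the gene for the ribosomal protein Rpl3, had 8.30 and 3.75 FPKM under PBS, 0.808 and 1.54 FPKM at 5 µM and 3.96 and 2.62 FPKM at 10 µM. These values came from 2 and 4 fragments at 5 µM and from 21 and 10 under PBS, and Rpl3 had 140 and 135 FPKM under PBS, 121 and 110 FPKM at 5 µM and 102 and 106 FPKM at 10 µM, so the host went down with dose. Snord72 in Rpl37 had 2.75 and 3.49 FPKM under PBS, 1.87 and 1.78 FPKM at 5 µM and 4.6 and 2.17 FPKM at 10 µM. Rn7sk, the 7SK RNA that holds back the elongation kinase P-TEFb, was better covered, with 43 and 37 fragments under PBS, 24 and 26 fragments at 5 µM and 59 and 67 fragments at 10 µM.

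Rn7sk had 4.83 and 3.95 FPKM under PBS, 2.75 and 2.83 FPKM at 5 µM and 7.37 and 7.13 FPKM at 10 µM. It rose by 0.62 ± 0.09 in 10 µM cells relative to PBS (limma adjusted p = 0.0025, 0.0021 to 0.0329 over the alternatives), the largest called rise among the members, and it held under every alternative except an added limit of 1 on the log2 difference. 7SK is made by RNA polymerase III and lacks a poly(A) tail, and whether the libraries retained such RNA is not given.

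Among the miRNA loci, Mir23a and Mir27a lie 80 bases apart on chromosome 8 and both met the rule, though on few fragments. Mature sequences of their 3p arms are shown, because both loci dipped, from RefSeq on GRCm38.p6, with the seed (bases 2 to 8), which pairs with target messages, in capitals.
mmu-miR-23a-3p, chr8:84208563-84208583, plus strand: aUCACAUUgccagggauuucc
mmu-miR-27a-3p, chr8:84208727-84208747, plus strand: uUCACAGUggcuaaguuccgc
The seeds differ, so the pair falls into different target families. FPKM at a hairpin locus counts fragments of longer RNA and is not the level of the mature miRNA. Mir23a had 6.94 and 5.18 FPKM under PBS, 2.02 and 3.85 FPKM at 5 µM and 9.93 and 10.3 FPKM at 10 µM, from 14 and 11 fragments under PBS, 4 and 8 fragments at 5 µM and 18 and 22 fragments at 10 µM. Mir27a had 3.84 and 4.87 FPKM under PBS, 2.18 and 3.32 FPKM at 5 µM and 6.18 and 4.45 FPKM at 10 µM. These values came from 9 and 12 fragments under PBS, 5 and 8 fragments at 5 µM and 13 and 11 fragments at 10 µM. Mir24-2, the third locus of the cluster, was no member, with 0.695 and 2.64 FPKM under PBS, 1.06 and 2.02 FPKM at 5 µM and 2.32 and 4.94 FPKM at 10 µM. Loci of one transcript share fragments of their primary RNA, so they are not independent. Other miRNA members were thinner still, with Mir6909 at 0 fragments in both 5 µM libraries against 3 and 3 under PBS. Mir7679 had 0 and 1 fragments at 5 µM against 1 and 3 under PBS, and Mir145a 2 and 1 against 6 and 4.

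Few members lay next to each other. Of the 177 members, 13 lay within 100 kb of another member, in 8 pairs, against 20 genes in 13 pairs among the genes that peaked at 5 µM. The pairs were Tgtp2, Ifi47 and Olfr56 on chromosome 11, Slfn9 with Mir7679, Iigp1 with F830016B08Rik, Samhd1 with Rbl1, Trip6 with Slc12a9, and Mir23a with Mir27a. Gm42418, an abundant noncoding member noticed after its values were seen, whose locus is known to overlap ribosomal RNA sequence, had 669 and 637 FPKM under PBS, 397 and 489 FPKM at 5 µM and 725 and 580 FPKM at 10 µM, and its duplicates differed by 0.30 and 0.32 on the log2 scale at 5 and 10 µM.

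At the margin itself, Ggt7, Rpl23a-ps2 and Mir6244 were the last members in, with depths of 0.251, 0.252 and 0.253. Just outside were 2310043P16Rik, 1110038F14Rik and Vegfa, with depths of 0.249, 0.248 and 0.247. Vegfa, the vascular growth factor, had 36.6 and 44.9 FPKM under PBS, 29.1 and 24.6 FPKM at 5 µM and 34.0 and 30.0 FPKM at 10 µM.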

How the data were processed

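Per the labels' protocols, TRIzol had been used to isolate the total RNA of the macrophages, and Illumina libraries were sequenced. The authors deposited FPKM values for all 6 samples in a single table, whose unit is taken from its name and values. Reads had been aligned with HISAT2 to GRCm38, per the submitters' processing notes, and for its version, the counting tool, the annotation and the use of strand nothing is stated (not given in the sources used here). The column prefix DXM is not explained by any label.

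Gene IDs were matched to GENCODE M21 for 54409 of 54446 entries (99.93%), which gave biotypes, exon lengths and coordinates. The fragments behind each value were recovered from FPKM and exon length, and between 98.8% and 99% of the values of at most 20 fragments were whole numbers to within 0.1. They were used only for depth and for an alternative fit. A gene of 1000 exon bases gained 0.0352 to 0.0414 FPKM per fragment, so low values of short genes are coarse, and such figures cover counting error only.

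The deposited FPKM were tested as log2(FPKM + 1) by limma (version 3.58.1, under R 4.3.3, eBayes with an intensity trend), on the 12722 genes that reached 1 FPKM in 2 samples or more, with all 6 samples in a single fit, two-sided and with Benjamini-Hochberg adjustment. A fold on this scale understates the change of low genes. The test was checked on simulated data. Groups came from the sample descriptions. Pseudogenes were compared with protein-coding transcripts by blastn 2.17.0 (e-value limit 1e-20, at least 50% of the length). RefSeq promoters (GRCm38.p6) were matched by symbol for 93 of the 177 members. Named genes were, among members other than predicted genes and clones, the 25 deepest, those in 38 gene lists, the 6 largest called rises and falls and the 6 most abundant, and, with predicted genes included, the 3 genes nearest the margin on each side. Predicted genes described beyond this were chosen after their values were seen. A gene that this rule names is not reported here. The members and the lists were chosen with earlier results of these data known, so no list is independent support. Alternatives were another pseudocount, expression filters, scalings, margins and fits, a replicate block, and leaving out each sample.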

Additional observations from a re-analysis of the deposited data

How the results depend on the processing

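The number of genes that met the rule was 278 with a pseudocount of 0.1 FPKM, 83 with a filter of 5 FPKM, 37 with a margin of 0.5 and 429 with a margin of 0.15, against 177 as described, and 163 to 346 when each sample was left out in turn. It was 346 without 5 µM sample 1 and 270 without 5 µM sample 2, of which 146 and 126 were among the 177. With median-of-ratios scaling, 141 of the 177 stayed members, and with quantile normalization 137. Members called higher in 10 µM cells than under PBS numbered 17, but 7 with no expression filter, 0 with a log2 difference of at least 1 required as well, 9 without PBS sample 2, 11 without 10 µM sample 1, and 9 to 19 over all samples left out. Members called lower numbered 16, but 8 with no filter, 7 with a filter of 5 FPKM (with 83 members in the fit), 4 with a log2 difference of at least 1, 9 without PBS sample 1, and 9 to 18 over all samples left out. Where a filter or threshold changed the number of genes tested or called, that follows from its construction, and the cause of the other changes was not tested. The median difference of 10 µM from PBS over the members, -0.0036, ran from -0.0513 to 0.0124 over the alternatives. Of the 15 named members called in 10 µM against PBS, 7 kept the call under all of up to 15 alternatives without a log2 limit (Gzme, Gzmc, Tnn, Rn7sk, Tgtp2, Gbp7 and Ifi47), 8 lost it under at least 1 and none changed sign. The replicate numbers did not pair the samples, since same-numbered samples correlated at -0.055 to 0.037 in their deviations from the group means, and with the replicate number as a block 18 members were called higher and 17 lower, with a median of -0.0036. Depth limits the small RNAs and short pseudogenes most, as 37 members had under 20 fragments in both 5 µM libraries.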

Other observations

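Splicing regulators show how the margin shapes the set. Of 34 tested SR proteins, hnRNPs and related regulators of exon choice, 14 (41.2%) had both 5 µM values below the other 4, against 8.42% of all genes, and none had a dip of 0.25 or more. They were Srsf1, Srsf3, Srsf4, Srsf5, Srsf6, Srsf7, Srsf10, Tra2a, Tra2b, Hnrnpa2b1, Hnrnpc, Hnrnph1, Son and Srrm1. The median of the 34 was -0.11 for 5 µM minus PBS and 0.11 for 10 µM minus 5 µM. In 10 µM cells relative to PBS 11 of the 34 rose and 7 fell, against 28.5% called higher and 22.0% lower over all genes tested. Under median-of-ratios scaling 7 were called higher and 12 lower.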
